A study of Homo sapiens with 4 samples.

Results

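Voltage-gated and potassium channels set the membrane voltage of a cell. The genes described here were those whose symbol begins with CACNA, CACNB, CACNG or KCN, or is SCN followed by a number and A or B, which takes in the pores of the voltage-gated calcium and sodium channels, the potassium channels, and the auxiliary subunits named after them. The table of LASCPC-01 cells listed 115 such genes among 16376 genes in all. Of these, 46 had a mean of at least 0.1 FPKM (fragments per kilobase of gene scaled to the mapped fragments of the library) over the 4 libraries and were tested for a change under fluoxetine. They were chosen by symbol and level and not by a measured change, though earlier results of these data were known.

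LASCPC-01 is a human neuroendocrine prostate cancer (NEPC) line made by adding NMYC together with activated AKT1, and both groups carry these genes. The PBS group and the fluoxetine group held 2 libraries each. Fluoxetine, an antidepressant that blocks serotonin reuptake, was dissolved in PBS and applied at 5 µM for 48 h by the published methods, but the labels read day 3 and state no dose. Titles of the fluoxetine libraries also carry the letters PP, and the genotype label of all 4 is WT. The cells are a single line, and no source states whether the libraries of a group came from separate cultures, so the tests below measure the spread between these libraries, which may be technical.

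The cell type label was checked against marker genes. The neuroendocrine genes DLL3, NCAM1 and INSM1 were present, at 177 to 201, 44.3 to 52.0 and 21.7 to 24.2 FPKM, while CHGA, CHGB, NEUROD1 and SCG3 lay under 0.1 FPKM in every library and SYP between 0.142 and 0.629 FPKM. The summed level of the 10 neuroendocrine markers was 436 and 414 FPKM under PBS and 416 and 424 FPKM under fluoxetine. The 4 epithelial markers summed to between 1090 and 1236 FPKM. Markers of fibroblasts (4 genes), endothelium (3), leukocytes (3) and glia (3) summed to at most 2.94, 0.218, 0.176 and 7.13 FPKM, and the glial sum came from MBP and AQP4 with GFAP at or near 0. Luminal prostate markers (6 genes) summed to between 15.5 and 17.4 FPKM, mostly TMPRSS2, with FOLH1 under 0.02 FPKM.

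Voltage-gated calcium (CaV) and sodium (NaV) channels open on depolarization and let calcium or sodium in. Potassium channels let potassium out and pull the voltage back. The Kv family opens on depolarization, calcium-activated channels open when cytosolic calcium rises, inward rectifiers hold the resting voltage, and 2-pore channels carry a background leak. Neuroendocrine cells use these currents to couple stimulation to calcium entry and secretion. Fluoxetine itself blocks several of these proteins, among them the hERG channel encoded by KCNH2, the leak channel TREK-1 encoded by KCNK2, and the glial inward rectifier Kir4.1 encoded by KCNJ10.

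All potassium pores share a short selectivity filter, and its codons are shown because they are the sequence feature common to the potassium channel genes that follow. A run of 5 codons was searched in the longest coding sequence of each gene: threonine or serine, then valine, isoleucine, leucine or threonine, then glycine, then tyrosine, phenylalanine or leucine, then glycine. It was found in 66 of 66 listed potassium pore genes, among them all 29 that were tested, in 1 of 48 other channel genes with a coding sequence (2.08%), and in 332 of 19465 genes with a coding sequence overall (1.71%). A match says only that these codons occur. The coding strand of 7 tested genes is given 5′ to 3′ with the filter codons in capitals and 9 bases on each side.
KCNH2: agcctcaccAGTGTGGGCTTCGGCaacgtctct
KCNH3: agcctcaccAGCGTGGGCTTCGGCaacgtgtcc
KCNJ11: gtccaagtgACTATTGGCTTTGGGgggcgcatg
KCNJ3: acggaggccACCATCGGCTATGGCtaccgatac
KCNN3: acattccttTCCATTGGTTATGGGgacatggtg
KCNS3: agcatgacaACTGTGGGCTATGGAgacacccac
KCNK1: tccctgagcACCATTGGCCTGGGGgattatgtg

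In GRCh38, by GENCODE 29, the capitals lie at chr7:150951509-150951523 on the minus strand for KCNH2, chr12:49549098-49549112 on the plus strand for KCNH3, chr11:17387690-17387704 (minus) for KCNJ11, chr2:154699202-154699216 (plus) for KCNJ3, chr1:154733060-154733074 (minus) for KCNN3, chr2:17932116-17932130 (plus) for KCNS3 and chr1:233666912-233666926 (plus) for KCNK1, each inside a coding exon. The residue between the glycines was tyrosine in 25 of the 33 matches of the 29 tested genes, phenylalanine in 6 and leucine in 2. Both genes with the highest level, KCNH2 and KCNJ11, carry phenylalanine there, as does KCNH3. The 2-pore genes have 2 filters in the same chain, and the KCNK1 sequence shown is its second, with leucine; the first, with tyrosine, is split by an intron. All 4 tested genes with 2 matches were 2-pore genes.

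The channel genes were mostly low in these cells. Of the 115, 46 (40.0%) reached a mean of 0.1 FPKM, against 77.3% of all listed genes, 22 (19.1%) reached 1 FPKM, against 64.6%, and 9 (7.83%) reached 10 FPKM, against 34.0%. Another 65 lay above 0 and under 0.1 FPKM, and KCNIP1, KCNJ5, SCN1A and SCN7A were listed at 0 in all 4 libraries. The members nearest to the threshold included SCN3B and KCNG3 above it, with means of 0.112 and 0.106 FPKM, and KCNH1, KCNS1 and KCNJ8 below it, with 0.0812, 0.0722 and 0.0714 FPKM. Whole reads could be recovered from the FPKM as the smallest whole numbers that fit at an inferred library depth. The counts of sparse genes may therefore be too low, and they depend on that depth. The genes under the threshold had a median of 6 reads over the 4 libraries together and no more than 32 reads in any library, and 51 of them had 10 reads or fewer in all. By these counts they were too shallow for a comparison between the groups. The tested genes had at least 41 reads over the 4 libraries, and 41 of the 46 had 100 or more.

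A few genes held most of the channel RNA. KCNH2, KCNJ11 and KCNN3, with means of 71.1, 57.3 and 31.6 FPKM, made up 51.3% of the summed channel level. Lower in order were CACNA1S (15.1 FPKM), CACNA2D2 (12.7 FPKM), KCNH3 (12.1 FPKM), KCNK1 (11.4 FPKM) and KCNAB2 (10.6 FPKM), and KCNK6 (7.68 FPKM), SCN9A (6.55 FPKM) and CACNB3 (6.30 FPKM) came next. The 4 library values of KCNH2 lay above those of KCNJ11, and those of KCNJ11 above those of KCNN3. Each pair of neighbours from CACNA2D2 to KCNAB2 overlapped, so their order is not fixed by these data. The sum over all channel genes was 318 and 319 FPKM under PBS and 294 and 318 FPKM under fluoxetine, with fluoxetine replicate 1 below the other 3 libraries.

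**Figure D1:**
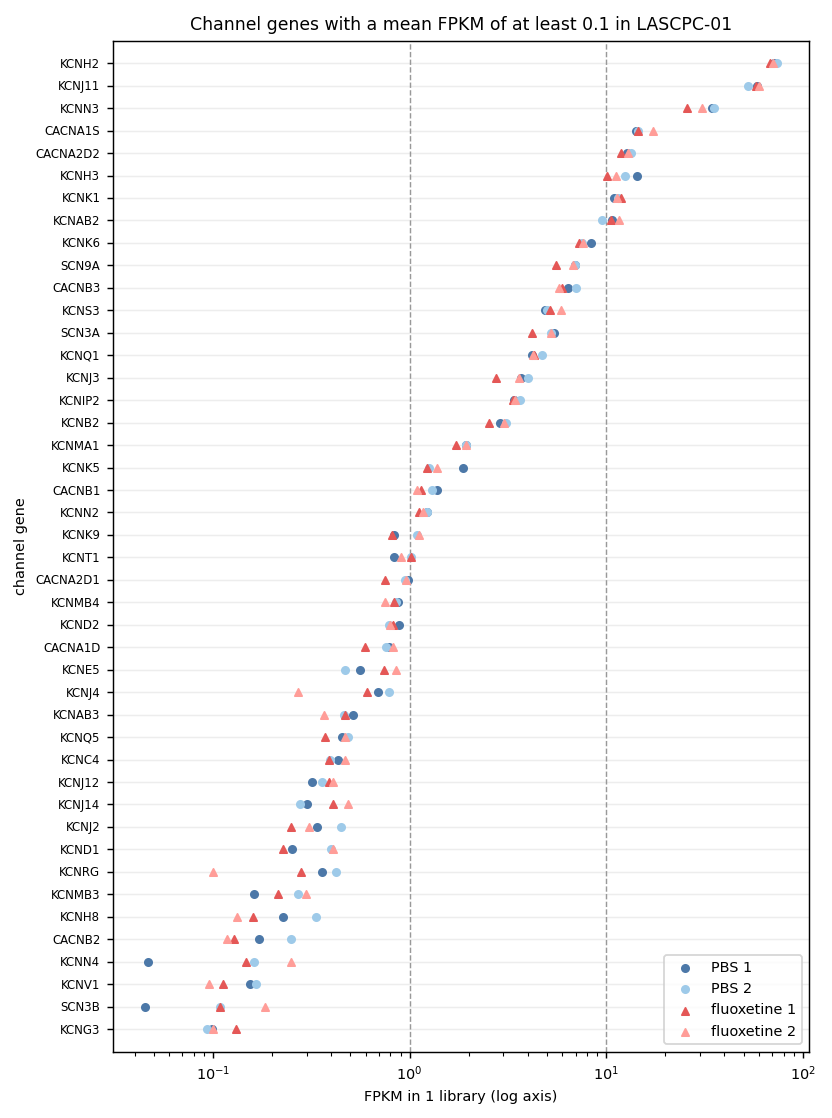
Level of 44 of the 46 tested channel genes in each library, as FPKM on a log axis, with circles for PBS and triangles for fluoxetine and dashed lines at 1 and 10 FPKM. Levels range up to KCNH2 with a mean of 71.1 FPKM, and in most genes the circles and triangles lie close together.

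Every subfamily other than the CaV gamma subunits had a tested member. Tested members were 2 of 10 CaV pores, 2 of 4 CaV alpha2delta subunits, 3 of 4 CaV beta subunits, 0 of 4 CaV gamma subunits, 2 of 8 NaV pores and 1 of 3 NaV beta subunits. Among potassium channels they were 5 of 13 Kv1 to Kv4 pores, 3 of 8 modulatory Kv subunits, 3 of 8 genes of the EAG, ERG and ELK group, 3 of 5 Kv7 genes, 7 of 11 calcium- or sodium-activated channel genes, 6 of 13 inward rectifiers, 4 of 12 2-pore genes and 4 of 11 Kv auxiliary genes. KCNRG, which encodes a soluble regulator of Kv assembly and not a channel, fell outside these groups. By summed mean level, the EAG, ERG and ELK group came first with 83.5 FPKM and the inward rectifiers next with 62.6 FPKM, each mostly from its leading gene.

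**Figure D2:**
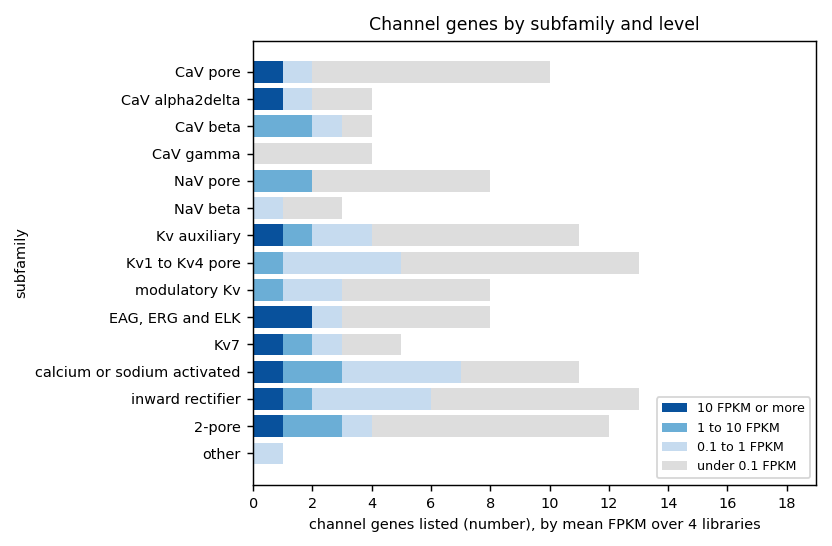
Number of listed channel genes in each subfamily, with the length of the bar divided by mean FPKM over the 4 libraries. The grey segments, genes under 0.1 FPKM, make up most of the bar in 10 of the 15 rows, and the CaV gamma row holds nothing else.

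The comparison of fluoxetine with PBS asks which channel genes the drug moves. None of the 46 tested channel genes passed an adjusted p under 0.05 (limma on log2(FPKM + 0.1), Benjamini-Hochberg over all 12663 tested genes), and the smallest adjusted p was 0.329, for KCNN3. Across all tested genes 27 (0.213%) were called lower and 3 (0.0237%) higher. At an unadjusted p under 0.05 there were 5 channel genes (10.9% of the 46) against 1078 genes overall (8.51%). The channel genes were lower under fluoxetine in 31 cases and higher in 15, or 67.4% lower against 56.5% of all tested genes. Their median log2 fold change was −0.08, against −0.02 for all tested genes, and their values ran from −0.83 to 0.58. In 15 channel genes (32.6%) both fluoxetine libraries lay below both PBS libraries, against 24.8% of all tested genes, and in 6 (13.0%) both lay above, against 16.7% of all. Fewer cells of a kind and less RNA per cell cannot be told apart in such bulk libraries.

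KCNN3, on chromosome 1 at 154697455 to 154870280 (minus strand), encodes SK3, a small-conductance channel opened by calcium through calmodulin. Its level was 34.5 and 35.5 FPKM under PBS and 25.8 and 30.6 FPKM under fluoxetine, from 12018 to 16501 reads a library. Both fluoxetine libraries were lower, and they differed more from each other than the PBS libraries did. The group means were 35.0 ± 0.709 and 28.2 ± 3.40 FPKM (SD, n = 2 each), a log2 fold change of −0.31 (SE 0.09, limma adjusted p = 0.329). A second test, limma voom on the recovered reads, gave the same log2 fold change of −0.31 and called KCNN3 (adjusted p = 0.0151), as the sole channel gene among 0.596% of all genes called lower by that test. Without fluoxetine replicate 1 the log2 fold change of KCNN3 was −0.19 (limma adjusted p = 0.922). The filter of KCNN3, shown above, begins with serine, as do those of KCNH2 and KCNH3.

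The other calcium- or sodium-activated genes were lower in level than KCNN3 by a wide margin. KCNMA1, the pore of the large-conductance BK channel, was at 1.93 and 1.93 FPKM under PBS and 1.73 and 1.94 FPKM under fluoxetine, so the groups overlapped. LRRC26, a gamma subunit that lets BK open near the resting voltage, was far higher than its pore, at 30.3, 33.6, 32.98 and 24.9 FPKM over the PBS and then the fluoxetine libraries. KCNN2, the SK2 gene, was at 1.23 FPKM in both PBS libraries and at 1.12 and 1.17 FPKM under fluoxetine, with a log2 fold change of −0.10 (95% interval −0.48 to 0.28). KCNT1, a sodium-activated channel, and the BK beta subunit KCNMB4 had means of 0.943 and 0.828 FPKM. KCNMB3 and the intermediate-conductance gene KCNN4 had means of 0.236 and 0.151 FPKM, and the exons of KCNMB3 overlap those of PIK3CA on the other strand over 37.9% of their length, so its reads are uncertain.

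In the EAG, ERG and ELK group all 3 tested genes were lower under fluoxetine with no overlap between the groups, as were 24.8% of all tested genes. KCNH2, on chromosome 7 at 150944961 to 150978315 (minus strand), encodes the hERG channel, whose current repolarizes heart cells and which several tumour lines carry. It was the highest channel gene, at 71.3 and 74.1 FPKM under PBS and 68.5 and 70.3 FPKM under fluoxetine. The groups were separated by a small margin, and the log2 fold change was −0.07 (SE 0.07, 95% interval −0.22 to 0.09, limma adjusted p = 0.783). KCNH3, an ELK channel of the forebrain, was at 14.3 and 12.5 FPKM under PBS and at 10.2 and 11.3 FPKM under fluoxetine, with means of 13.4 ± 1.26 and 10.7 ± 0.782 FPKM (SD, n = 2 each). Its log2 fold change of −0.32 (SE 0.10) had the second smallest adjusted p among the channel genes, 0.406 (limma), and the voom test gave −0.31 with an adjusted p of 0.0822. KCNH8, the other ELK gene tested, was low, at 0.226, 0.334, 0.160 and 0.133 FPKM, or 20 to 50 reads a library.

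The inward rectifiers were led by KCNJ11, the Kir6.2 pore of the ATP-sensitive potassium channel that couples metabolism to voltage in endocrine cells. Its level was 58.6 and 52.9 FPKM under PBS and 57.6 and 60.1 FPKM under fluoxetine, so the groups overlapped, with a log2 fold change of 0.08 (95% interval −0.09 to 0.25). The sulfonylurea receptors that complete this channel were far lower. ABCC8 was at 3.55, 3.60, 3.06 and 3.44 FPKM, and ABCC9 was at or near 0 in every library. These receptors were looked up after the channel values were seen.

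KCNJ3, a G protein-gated rectifier (GIRK1), was at 3.71 and 4.01 FPKM under PBS and at 2.77 and 3.61 FPKM under fluoxetine, and its log2 fold change was −0.28 (SE 0.14, limma adjusted p = 0.598). That of KCNJ3 was −0.09 without fluoxetine replicate 1 and −0.46 without replicate 2. The partners it is known to assemble with, KCNJ5, KCNJ6 and KCNJ9, were all under 0.1 FPKM. Strong rectifiers of the Kir2 kind differed in sign. KCNJ4 was at 0.688 and 0.786 FPKM under PBS and 0.609 and 0.270 FPKM under fluoxetine, and KCNJ2 at 0.339, 0.448, 0.2505 and 0.309 FPKM. KCNJ14 went the other way, with 0.2999 and 0.276 FPKM under PBS and 0.410 and 0.484 FPKM under fluoxetine. Their limma log2 fold changes of −0.71 (SE 0.31), −0.37 (SE 0.30) and 0.49 (SE 0.28) rested on 20 to 84 reads a library, and no adjusted p was under 0.555. KCNJ4 was at −0.24 without fluoxetine replicate 2 and at −1.17 without replicate 1, and KCNJ2 at −0.21 without PBS replicate 2. The exons of KCNJ14 and KCNJ4 overlap genes on the other strand over 16.5% and 12.6% of their length, and the strand setting of the count is not known. KCNJ12 (mean 0.369 FPKM) is nearly identical to KCNJ18, so their reads are uncertain.

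Of the 3 fluoxetine-blocked channels looked up here, KCNH2 was abundant, and KCNK2 and KCNJ10 were at traces. For KCNK2 there were 0 reads under PBS, and the fluoxetine libraries held 2 and 5 reads, up to 0.0226 FPKM. KCNJ10 had 1 and 9 reads under PBS, up to 0.0497 FPKM, and 0 under fluoxetine. A count of 0 allows up to 3 reads, for counting error only, and neither gene was tested.

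Of the Kv7 genes, KCNQ1, which carries cardiac and epithelial potassium currents, was at 4.18 and 4.74 FPKM under PBS and 4.28 and 4.24 FPKM under fluoxetine. Both fluoxetine values lay between those of PBS, and the log2 fold change was −0.06 (95% interval −0.31 to 0.19). KCNQ5 was at 0.370 to 0.484 FPKM with overlapping groups, and KCNQ3 was under 0.1 FPKM.

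Among Kv1 to Kv4 pores, no KCNA gene was tested and KCNB2, the Kv2.2 pore, led. KCNB2 was at 2.88 and 3.09 FPKM under PBS and 2.53 and 3.03 FPKM under fluoxetine, with a log2 fold change of −0.10 that turned to 0.02 without fluoxetine replicate 1. KCND2, KCNC4 and KCND1 had means of 0.823, 0.421 and 0.322 FPKM, and the groups overlapped in all of them. The modulatory subunit KCNS3, which is silent alone and alters Kv2 channels, was at 4.90 and 5.01 FPKM under PBS and at 5.18 and 5.92 FPKM under fluoxetine. Both fluoxetine values of KCNS3 were higher, with a log2 fold change of 0.16 (95% interval −0.08 to 0.40). KCNV1, of the same kind, was at 0.154, 0.167, 0.112 and 0.0955 FPKM.

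The Kv auxiliary genes had 1 member above 10 FPKM, KCNAB2, a cytosolic beta subunit with an oxidoreductase fold. It was at 10.7 and 9.48 FPKM under PBS and at 10.6 and 11.6 FPKM under fluoxetine, and the groups overlapped. KCNIP2, a calcium-binding partner of Kv4, was at 3.34 to 3.64 FPKM. Its exons overlap KCNIP2-AS1 on the other strand over 12.2% of their length, and the strand setting of the count is not known. KCNE5, a small subunit that inhibits Kv7 channels, was at 0.558 and 0.469 FPKM under PBS and 0.741 and 0.858 FPKM under fluoxetine. It had the largest log2 fold change among the channel genes that were higher with no overlap between the groups, 0.55 (SE 0.23, limma adjusted p = 0.552), from 24 to 44 reads a library. KCNRG had the lowest fold change of all, −0.83 (SE 0.37, limma adjusted p = 0.562), from 0.360, 0.421, 0.280 and 0.10 FPKM, and it was at −0.36 without fluoxetine replicate 2 and at −1.29 without replicate 1. However, 66.8% of the exon length of KCNRG is shared with TRIM13 on the same strand, and its count was 5 to 21 reads a library, so its reads are uncertain.

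The 2-pore genes were led by the TWIK genes KCNK1 and KCNK6. KCNK1 was at 10.9 and 11.5 FPKM under PBS and 11.9 and 11.4 FPKM under fluoxetine, and KCNK6 at 8.34 and 7.50 FPKM and at 7.26 and 7.60 FPKM. The groups overlapped in both, with log2 fold changes of 0.06 (95% interval −0.13 to 0.24) and −0.09 (−0.30 to 0.12). The acid-sensitive KCNK5 and KCNK9 had means of 1.43 and 0.966 FPKM and log2 fold changes of −0.22 and 0.01.

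The CaV pores had a single abundant member, CACNA1S, the pore of the skeletal muscle L-type channel, on chromosome 1 at 201039512 to 201112566 (minus strand). CACNA1S was at 14.2 and 14.5 FPKM under PBS and at 14.5 and 17.3 FPKM under fluoxetine, with 2822 to 3635 reads a library. Fluoxetine replicate 1 was just above the PBS values and replicate 2 was higher, and the log2 fold change was 0.14 (SE 0.09, limma adjusted p = 0.654), or 0.02 without replicate 2 and 0.27 without replicate 1. CACNA1D, the neuroendocrine L-type pore, was at 0.790, 0.758, 0.591 and 0.827 FPKM, and the other 8 CaV pores were under 0.1 FPKM. STAC3, the adaptor that brings the CACNA1S channel to the membrane in muscle, was at 18.2 and 18.0 FPKM under PBS and at 21.0 and 19.3 FPKM under fluoxetine, whereas the muscle calcium release channel RYR1 was at or near 0. STAC3 was looked up after the channel values were seen.

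All 3 tested CaV beta subunits, which carry the pore to the membrane, were lower under fluoxetine with no overlap between the groups, as were 24.8% of all tested genes. CACNB3 was at 6.42 and 7.06 FPKM under PBS and at 5.95 and 5.78 FPKM under fluoxetine, with a log2 fold change of −0.20 (SE 0.10, limma adjusted p = 0.603). CACNB1 was at 1.37 and 1.30 FPKM and at 1.14 and 1.09 FPKM, with −0.24 (SE 0.17). CACNB2 was at 0.172 and 0.249 FPKM and at 0.129 and 0.117 FPKM, with −0.47 (SE 0.38). Each interval included 0. The alpha2delta subunit CACNA2D2, the partner bound by gabapentin-type drugs, was at 12.8 and 13.4 FPKM under PBS and 11.8 and 12.9 FPKM under fluoxetine, and its groups overlapped.

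NaV channels were represented by 2 genes of the sodium channel cluster on chromosome 2. SCN9A (chromosome 2, 166195185 to 166376001, minus strand), the NaV1.7 pore of pain-sensing and endocrine cells, was at 6.93 and 6.92 FPKM under PBS and 5.57 and 6.80 FPKM under fluoxetine. SCN3A (165087522 to 165204067, minus strand), the fetal neuronal NaV1.3 pore, was at 5.42 and 5.21 FPKM and at 4.22 and 5.25 FPKM. In both genes fluoxetine replicate 1 stood below the other 3 libraries, which lay close together, and both log2 fold changes were −0.17 (SE 0.11 and 0.12, limma adjusted p 0.654 and 0.672). Without fluoxetine replicate 1 they were −0.03 and −0.02. The remaining NaV pores were under 0.1 FPKM. The beta subunit SCN3B was at 0.0450, 0.109, 0.109 and 0.184 FPKM, or 9 to 39 reads.

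**Figure D3:**
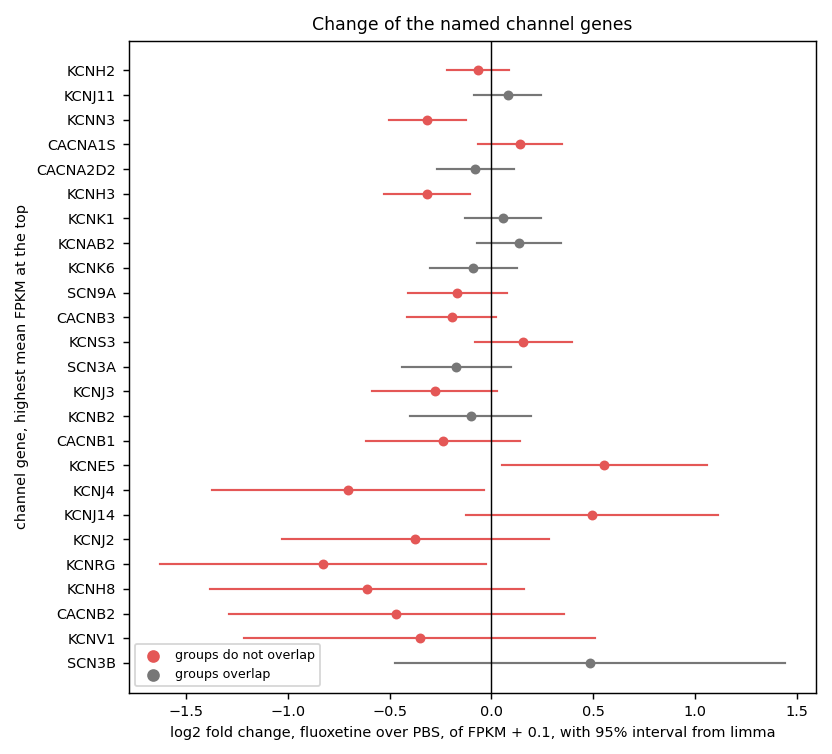
Log2 fold change of fluoxetine over PBS, of FPKM + 0.1, for 25 tested channel genes named by rule, ordered by mean FPKM with the highest at the top. Lines are 95% intervals from limma and red marks genes whose groups do not overlap; intervals widen from KCNH2 (−0.22 to 0.09) to SCN3B (−0.47 to 1.44).

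For the abundant channels the intervals were narrow, but each is for a single gene and measures only the spread between these libraries, which may be technical. Leaving out a library still moved the estimates, as the KCNN3 and CACNA1S values above show. Over the 9 genes at 10 FPKM or more, log2 fold changes lay between −0.32 and 0.14, and their 95% intervals together ran from −0.53 to 0.35. Among all 22 genes of at least 1 FPKM, no interval reached further than 0.43 from its estimate. Below that level intervals were wider, as the SCN3B and KCNRG values show.

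The lower values did not come equally from both fluoxetine libraries. Fluoxetine replicate 1 was the lowest of the 4 libraries for 21 of the 46 channel genes (45.7%), against 33.03% of all tested genes, and replicate 2 for 10 (21.7%, against 22.9%). Relative to the PBS mean, the median log2 difference of the channel genes was −0.13 in replicate 1 and −0.02 in replicate 2, and 32 and 26 of the 46 were below it. Over all tested genes both medians were −0.02. Over all tested genes, length was correlated with the difference between fluoxetine replicates 1 and 2, and more weakly so over the 46 channel genes. The tested channel genes were longer, with a median length of 5252.5 bases by the recovered reads against 3844.5 for all genes, and the log2 difference between fluoxetine replicates 1 and 2 had a Spearman correlation with length of −0.18 over the 46 channel genes and −0.36 over 12586 genes, which share their libraries and are not independent. With the length trend removed from each library, the median log2 fold change was −0.02 for the channel genes and 0.003 for all tested genes. KCNN3 was then at −0.18. What part length or RNA quality has in the lower channel values of replicate 1 was not tested further.

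**Figure D4:**
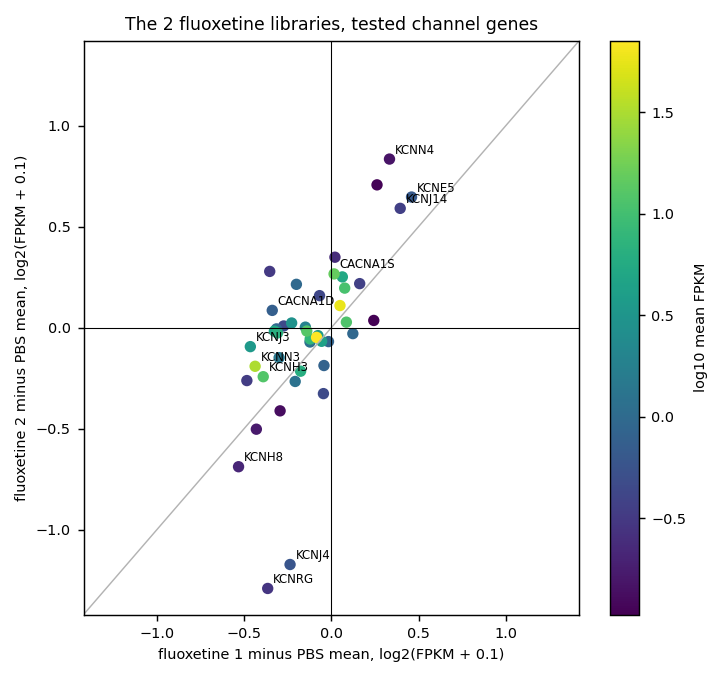
Difference of each fluoxetine library from the PBS mean, in log2(FPKM + 0.1), for 44 of the 46 tested channel genes, with replicate 1 on the horizontal and replicate 2 on the vertical axis, colour for mean FPKM and a grey line where both are equal. Of all 46 genes, 32 lie left of the vertical zero line and 26 below the horizontal one, and the points far from the centre are of low FPKM.

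The proteins that act on these channels were counted by lists. Of 66 partner genes, 63 were listed and 45 tested, with 29 lower and 16 higher under fluoxetine, where 56.5% of all tested genes were lower. The lists were written with earlier results of these data known, so a share called among them is no test of the partners. Of the 45, 1 was called lower, against 0.213% of all tested genes. This was GEM, a small GTPase of the RGK kind that binds CaV beta subunits and lowers the calcium current. GEM was at 1.90 and 2.04 FPKM under PBS and at 0.473 and 0.715 FPKM under fluoxetine, with a log2 fold change of −1.60 (SE 0.21, limma adjusted p = 0.00704). With 1 library left out its log2 fold change ran from −1.34 to −1.85, and the adjusted p was 0.233 without PBS replicate 1, 0.405 without PBS replicate 2, 0.0552 without fluoxetine replicate 1 and 0.0160 without fluoxetine replicate 2. In each of these fits a lone library is assumed to vary like the other group, which alone gives the spread, and between 2 and 12 genes were called in all. RRAD, of the same family, was under the threshold at 0.145 and 0.0783 FPKM under PBS, from 7 and 4 reads. It was 0 in both fluoxetine libraries. REM2, the other tested RGK gene, was at 0.0138 and 0.221 FPKM under PBS and 0.104 and 0.117 FPKM under fluoxetine. Its groups overlapped, with a log2 fold change of 0.14 (limma adjusted p = 0.960).

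No gene of the other partner lists was called. All 4 tested NaV partners (ANK2, ANK3, FGF11 and NEDD4L) were lower with no overlap between the groups, at log2 fold changes of −0.16 to −0.27, and so were 2 of 3 tested Kv partners, AMIGO1 and DPP10, against 24.8% of all tested genes. FGF11, a cytosolic modulator of sodium channels, was at 5.86, 6.10, 4.63 and 5.64 FPKM, again lowest in fluoxetine replicate 1. Among other channels of the membrane potential, 4 of 7 tested genes were lower and 3 higher. Among the pumps that maintain the gradients, ATP2A3, a calcium pump of the endoplasmic reticulum, was at 158 to 172 FPKM, and of 8 tested pumps and exchangers 3 were lower and 5 higher. Of 9 tested genes of calcium release and store-operated entry 7 were lower, with ITPR2 at 12.7, 13.5, 10.6 and 11.8 FPKM, and of 11 calcium sensors 6 were lower and 5 higher. LRRC26 was the only tested BK gamma subunit.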

How the data were processed

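The authors deposited FPKM for 16376 genes in each of 4 libraries. The submitters' processing notes name fastp, HISAT2, HTSeq and the build GRCh38. The annotation and strand setting are not given in the sources used here, and the library kit differs between labels (TruSeq Stranded) and methods (VAHTS Universal), so antisense overlaps are uncertain.

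Limma 3.58.1 in R 4.3.3 (lmFit, eBayes with a variance trend) was fitted to log2(FPKM + 0.1) of the 12663 genes whose mean was 0.1 FPKM or more, with p-values adjusted by Benjamini-Hochberg and a threshold of 0.05. Fold changes are on that scale, which understates those of low genes. A permutation test of 2 against 2 libraries cannot go below 0.333, so none was used. FPKM were whole multiples of 1 read, and reads were solved for 16003 of 16080 genes above 0. They were the smallest whole numbers within 0.002 of the ratios that also gave a whole gene length, except in the deepest genes. That length was taken at a depth shared by 51 genes with GENCODE 29 exon lengths. The counts therefore rest on this depth too. This depth was 32873603 to 34831389 reads a library, and 1 read in 1 kb was worth 0.0287 to 0.0304 FPKM. Limma voom on these reads was an alternative. Replicates differed beyond sampling noise over the 46 tested channel genes (chi-square per degree of freedom 4.27 for PBS, 5.18 for fluoxetine). Over all tested genes these values were higher, at 8.64 and 10.45. The read recovery and the limma fit were also run on simulated data. Those data had independent noise in each gene and no length-linked difference between libraries, so they cannot show how the fit handles such a difference. Tables and figures used Python 3.11.15 (pandas 2.3.3).

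Channel genes, lists and tests were chosen with earlier results of these data known. Genes named were the 12 highest by mean FPKM, the 12 with the largest fold change whose groups did not overlap, the highest of each subfamily, KCNK2, KCNJ10 and KCNH2 as fluoxetine targets, and SCN3A. Other members are named within their family, and the results for some genes are not reported here. Partner lists were RGK proteins, NaV partners, Kv partners, BK gamma subunits, other channels of the membrane potential, pumps and exchangers, calcium release and entry, and calcium sensors.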

Additional observations from a re-analysis of the deposited data

How the results depend on the processing

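Over 15 alternatives, 25 tested channel genes named by rule gave 366 values, of which 363 kept direction and side of the threshold. KCNN3 passed it under voom on recovered reads, where 1 channel gene and 91 genes in all were called. Settings that change only the filter, the variance model or the replicate block leave each log2 fold change unchanged. Direction was therefore fixed there. No channel gene was called in the main fit, so a kept side of the threshold means still not called. With 1 library left out, 20 of the 25 moved by over 1.5 times. KCNB2 turned to 0.0240 with the length trend removed (added once the data had been seen), and ranged from −0.228 to 0.0230 when 1 library was left out. All genes called numbered 30, and 0 with no filter (1175 at an unadjusted p under 0.05, 7 of them channel genes), 0 without the variance trend (933, 8 of them channel genes), 16 with quantile normalization and 2 to 12 with 1 library left out. The median log2 fold change of the channel genes was −0.132 on TPM, where that of all genes was −0.0688. It was −0.0267 with quantile normalization (all genes −0.00263) and −0.0230 with the length trend removed (all genes 0.00329). With 1 library left out it ran from −0.132 to −0.0218 (all genes −0.0365 to −0.0150). The deviations of libraries that share a number correlated at 0.0351, and the pairing of the numbers is not given by the labels. The replicate block called 64 of 12663 genes, none of them a channel gene. At an unadjusted limma p under 0.05 it gave 1405 genes, 6 of them among the 46 channel genes. GEM passed the threshold in 10 of 15 alternatives and was at an adjusted p of 0.650 with no filter and 0.233 without the variance trend. The causes were not tested. With 2 libraries a group, no change of a channel gene was resolved in the main fit, and intervals were widest under 1 FPKM.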
